A study of Mus musculus with 36 samples.

Results

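The 10 heat shock chaperone genes Hsph1, Hspa1a, Hspa1b, Hspa4l, Hspa8, Hspb1, Hspb8, Cryab, Dnajb1 and Ahsa2 are described here in fetal mouse fibroblasts under static culture and under flow. They were taken as the probe sets annotated to exactly 1 of these symbols, which gave 26 of the 35041 probe sets with 1 symbol on the array pair, and 10 of the 18193 genes measured. The genes were chosen by their flow minus static differences in these same arrays, so every flow difference below is a description and carries no test.

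Primary fibroblasts were isolated from tendon, cornea and skin of CD1 mouse embryos at day 19 after conception, expanded over 5 population doublings and plated on glass coated with gelatin. Static control plates then stayed under medium with 2% serum for 14 h, and stimulated plates were perfused with such medium in a flow chamber for the same time, with a wall shear stress of 0.1 dyn/cm2. Each of the 6 groups of tissue and state holds 3 libraries, and the word library stands for 1 chip A and 1 chip B array of the Affymetrix MOE430 set with the same group and replicate number. No genotype or transgene is named, all groups share the strain, age, passage and coating, and the labels name a time mated mouse without saying which embryos went into which replicate, so the p-values rest on the spread among these libraries alone, which may be technical. The 6 arrays of stimulated tendon carry a description that names cornea, while their titles, their sources and the scan records of all 36 arrays name the tissue used here. Values are log2 RMA values, differences are flow minus static on the log2 scale with the limma standard error (SE), and group means are given with the SD of 3 libraries. The beta-actin 3' minus 5' difference was largest in tendon flow 2 (1.75), skin flow 2 (1.69) and static tendon 3 (1.44), and results that turn on 1 library are given without it too.

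The cultures carried fibroblast transcripts throughout. All 8 fibroblast markers (Col1a1, Col1a2, Col3a1, Vim, Pdgfra, Thy1, Dcn and Fn1) lay between the 63.4th and the 99.9th percentile of their chip, with a median at the 98.5th. Medians of the other marker lists ran from percentile 20.8 (keratinocyte and corneal epithelium) to 50.3 (Schwann cell and melanocyte). Single markers of other lists lay above Pdgfra, the lowest fibroblast marker. These were Acta1 (percentile 94.2), Bfsp2 (79.2), Csf1r (77.3), Kdr (72.7) and Lim2 (66.4). The mean level of the 7 lens genes, which was followed because Cryab is a lens crystallin, ran from 6.40 to 6.71 in static libraries and from 6.33 to 6.60 under flow. The 7 skeletal muscle genes had a mean level of 6.34 to 6.68 in static libraries and 6.32 to 6.67 under flow, and within them actin alpha 1 (Acta1) was bright. Under flow, 0 of the 8 lists of cell type markers had a gene past the limma threshold on average or in a tissue. Between tissues Thy1, Dcn, Fn1, Acta1, Cd68 and Mitf passed it in at least 1 comparison, and the part of cell composition in the tissue differences below was not tested. In such bulk samples fewer cells of a type and less RNA per cell cannot be told apart.

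Heat shock chaperones bind unfolded or partly folded proteins and keep them from aggregating. HSP70 proteins work in cycles of ATP hydrolysis that HSP40 co-chaperones start and HSP110 proteins reset by nucleotide exchange, while small heat shock proteins hold unfolded clients without ATP. The family is known for its induction by heat shock factor 1, which binds repeats of the letters GAA and TTC, called heat shock elements, near the start sites of these genes.

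The RefSeq promoter table used here (build GRCm38.p6, 250 bases before to 50 after a start site) held 8 of the 10 genes, all but Hspa8 and Cryab. A 2-unit heat shock element, GAANNTTC or TTCNNGAA on either strand, was found in a promoter of 5 of these 8, against 17.0% of the 27025 genes in the table. The 3-unit form, which extends GAANNTTC by NNGAA or TTCNNGAA by NNTTC and so contains 2-unit forms, was found in 1 of the 8, Hsph1, where it lies after the start site, against 0.662% of all genes. The 3 promoters below are shown because they carry such elements within the windows of genes described at length below, with the 2-unit and 3-unit elements in capitals. They are Hsph1 at chr5:149636287-149636586 on the minus strand, Hspa1a at chr17:34972107-34972406 on the minus strand and Hspb1 at chr5:135887669-135887968 on the plus strand.
Hsph1: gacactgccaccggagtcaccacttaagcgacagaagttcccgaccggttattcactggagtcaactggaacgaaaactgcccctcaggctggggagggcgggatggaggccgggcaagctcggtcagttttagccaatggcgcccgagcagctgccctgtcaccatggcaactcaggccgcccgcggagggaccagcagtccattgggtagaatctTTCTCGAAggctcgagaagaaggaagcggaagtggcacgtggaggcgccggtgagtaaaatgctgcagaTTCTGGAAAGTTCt
Hspa1a: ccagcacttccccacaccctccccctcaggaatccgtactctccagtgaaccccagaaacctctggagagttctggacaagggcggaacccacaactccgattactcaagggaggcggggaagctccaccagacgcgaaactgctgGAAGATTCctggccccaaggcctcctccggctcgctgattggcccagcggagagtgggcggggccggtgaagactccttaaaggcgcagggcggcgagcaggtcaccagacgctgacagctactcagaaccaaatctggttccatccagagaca
Hspb1: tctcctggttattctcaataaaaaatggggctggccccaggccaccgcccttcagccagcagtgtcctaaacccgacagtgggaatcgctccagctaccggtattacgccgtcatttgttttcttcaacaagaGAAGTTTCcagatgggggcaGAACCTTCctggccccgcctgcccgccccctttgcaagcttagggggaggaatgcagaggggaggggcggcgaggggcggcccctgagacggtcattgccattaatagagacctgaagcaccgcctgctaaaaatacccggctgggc
The Hspa1b promoter differed from that of Hspa1a at 4 of 300 bases and carried the same element, GAAGATTC. Of the other genes Hspb8 carried GAAGTTTC just after its start site, and in the windows of Hspa4l, Dnajb1 and Ahsa2 these letters were not found. A match is a description of letters only. The core of the antioxidant response element, TGACNNNGC on either strand, was found for Hsph1 and Dnajb1, against 14.0% of all genes.

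All 10 genes had a higher mean under flow in each of the 3 tissues. Over all genes measured 22% did so, a share that cannot be read against the 10 because the choice used this contrast. The median difference of the 10, averaged over tissues, was 0.54, and the median over all genes was -0.01. By tissue the medians of the 10 were 0.63 in tendon, 0.54 in cornea and 0.48 in skin, beside medians of all genes of 0.00, 0.00 and -0.02. The states did not overlap in 6 of the 10 genes in tendon (4.71% of all genes had all flow libraries above all static ones), in 8 in cornea (5.94%), in 6 in skin (4.18%) and in 6 in every tissue (0.467%), and in 4 all 9 flow libraries lay above all 9 static ones (0.181%). In the average over tissues 6 of the 10 passed the limma threshold, adjusted p below 0.05 over all 18193 genes, where 0.896% of all genes passed in either direction and 0.632% were higher. These were Hsph1, Hspa1a, Hspa4l, Hspb1, Cryab and Ahsa2, and since this contrast chose the genes nothing is read from the count. The counts by tissue were 3 in tendon (0.0605% of all genes), 0 in cornea (0.022%) and 0 in skin (0.0275%). The tendon count was 0 without tendon flow 1, without tendon flow 2 and with the tendon libraries fitted alone, and 2 (Hsph1 and Ahsa2) without any 1 of the other 4 tendon libraries, static tendon 3 included.

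**Figure D1:**
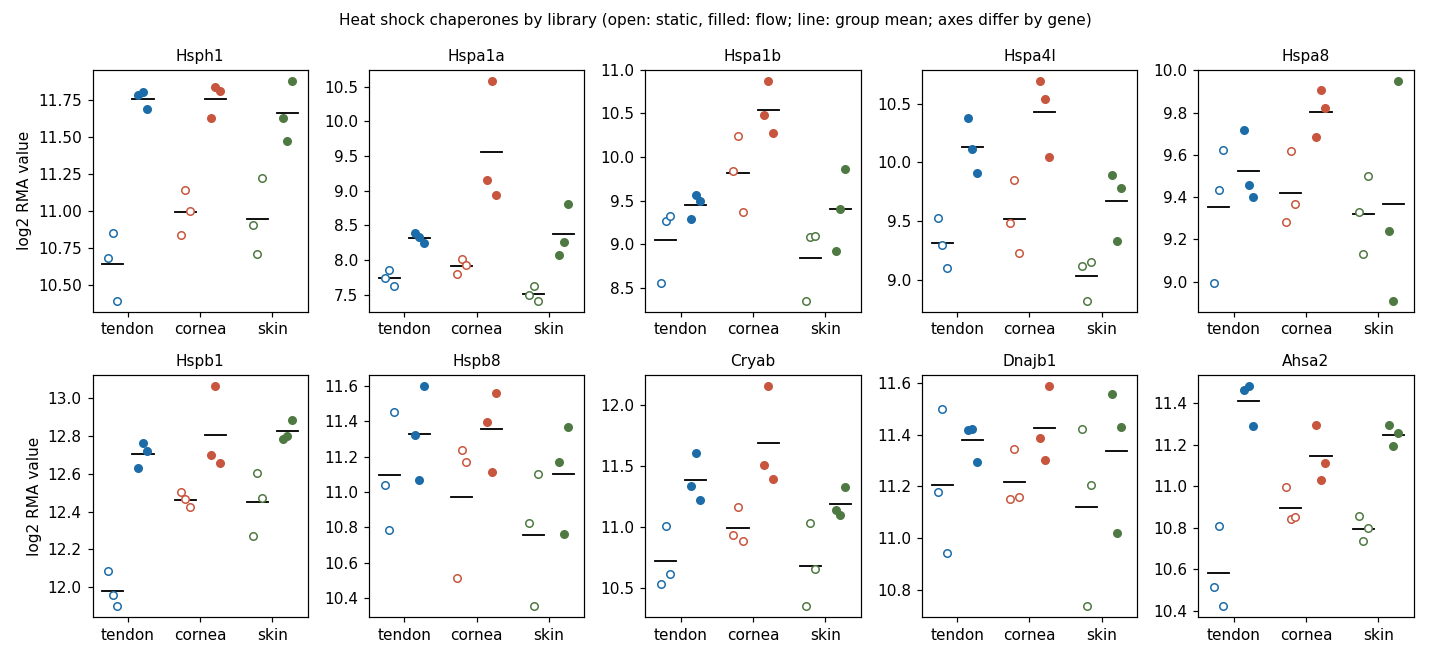
Log2 RMA values (vertical axis, its range differs by gene) of the representative probe set of each of the 10 genes in the 18 libraries, with open points for static and filled points for flow, a line at each group mean, and the tissues along the horizontal axis. In Hsph1, Hspa1a, Hspb1 and Ahsa2 every flow library lay above every static library, and in Hspa1a the 3 corneal flow libraries (8.93 to 10.59) lay above the other 6.

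Hspa1a, which encodes a stress-inducible cytosolic HSP70, had the largest average difference of the 10. Its values in tendon were 7.74, 7.86 and 7.62 in static libraries and 8.40, 8.33 and 8.25 under flow. In cornea they were 7.80, 8.01 and 7.93 in static culture and 9.15, 10.59 and 8.93 under flow, and in skin 7.50, 7.62 and 7.41 against 8.07, 8.26 and 8.80. All 9 flow libraries lay above all 9 static libraries, and cornea flow 2 was the highest library. Hspa1a was higher by 1.03 ± 0.17 on average, which is 2.05-fold. The difference was 0.59 ± 0.30 in tendon, 1.64 ± 0.30 in cornea and 0.87 ± 0.30 in skin, and without cornea flow 2 the corneal difference was 1.13.

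Hspa1b, the neighbouring and nearly identical inducible HSP70 gene, was less uniform. Its static values were 8.56, 9.26 and 9.32 in tendon, 9.84, 10.24 and 9.37 in cornea, and 8.35, 9.09 and 9.10 in skin. Under flow they were 9.28, 9.56 and 9.50 in tendon, 10.48, 10.87 and 10.28 in cornea, and 8.93, 9.40 and 9.87 in skin. The 2 states overlapped in tendon and skin and did not in cornea. Hspa1b was higher by 0.56 ± 0.16 on average (1.47-fold). Its other probe sets gave 0.67 and 0.62, one of them marked as cross-hybridising, and because the 2 genes share nearly all of their coding sequence the probe sets of either may also read the other.

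Hspa8 encodes the constitutive HSP70 of the cytosol. Its representative probe set ran from 8.99 to 9.62 in static libraries and from 8.91 to 9.95 under flow, with overlap in tendon and skin. The average difference was 0.20 ± 0.12, and skin flow 3 (9.95) and skin flow 2 (8.91) of the same group held its highest and lowest values. Of the 3 other probe sets, 2 are marked as cross-hybridising and read 12.92 and 12.70 in the mean over 18 libraries, with differences of 0.13 and 0.06. The remaining one was dim, at percentile 11.2 of its chip, and gave 0.03.

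Among the 10, the HSP110 genes Hsph1 and Hspa4l were higher in every tissue without overlap of the states on their representative probe sets. Hsph1 encodes a HSP110 protein, a nucleotide exchange factor of HSP70. In static culture it read 10.69, 10.86 and 10.39 in tendon, 10.84, 11.14 and 11.00 in cornea, and 10.91, 10.71 and 11.23 in skin. Flow libraries read 11.79, 11.81 and 11.69 in tendon, 11.63, 11.84 and 11.81 in cornea, and 11.63, 11.48 and 11.88 in skin. Every flow library lay above every static one. The difference was 1.12 ± 0.15 in tendon (2.17-fold), 0.77 ± 0.15 in cornea and 0.72 ± 0.15 in skin, and 0.87 ± 0.09 on average. The second Hsph1 probe set gave 1.18 on average.

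Hspa4l encodes a relative of HSP110 that is known best from testis. Static values were 9.53, 9.30 and 9.10 in tendon, 9.48, 9.85 and 9.23 in cornea, and 9.12, 8.82 and 9.15 in skin. Under flow it read 10.37, 10.12 and 9.91 in tendon, 10.70, 10.54 and 10.05 in cornea, and 9.89, 9.33 and 9.78 in skin. Within each tissue the states did not overlap, although skin flow 2 (9.33) lay below 3 static libraries of the other tissues. The average difference was 0.79 ± 0.12 (1.73-fold).

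The 5 Hspa4l probe sets disagreed. The second on chip A gave 0.71 on average, and the 3 on chip B gave 0.48, 0.26 and 0.00. In cornea the first 2 of these chip B probe sets gave 0.16 and 0.00, where the representative gave 0.91. For the probe set with an average of 0.26 the static values were 8.56, 8.46 and 8.19 in cornea, 7.48, 7.70 and 7.43 in skin and 7.38, 7.51 and 7.04 in tendon. Static cornea lay above all other static libraries on that probe set, and the static tissues differed by the limma F test over all 35041 probe sets with 1 symbol (adjusted p = 0.00104), while the representative gave adjusted p = 0.47 there. Which transcripts the chip B probe sets read is not given in the sources used here.

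**Figure D2:**
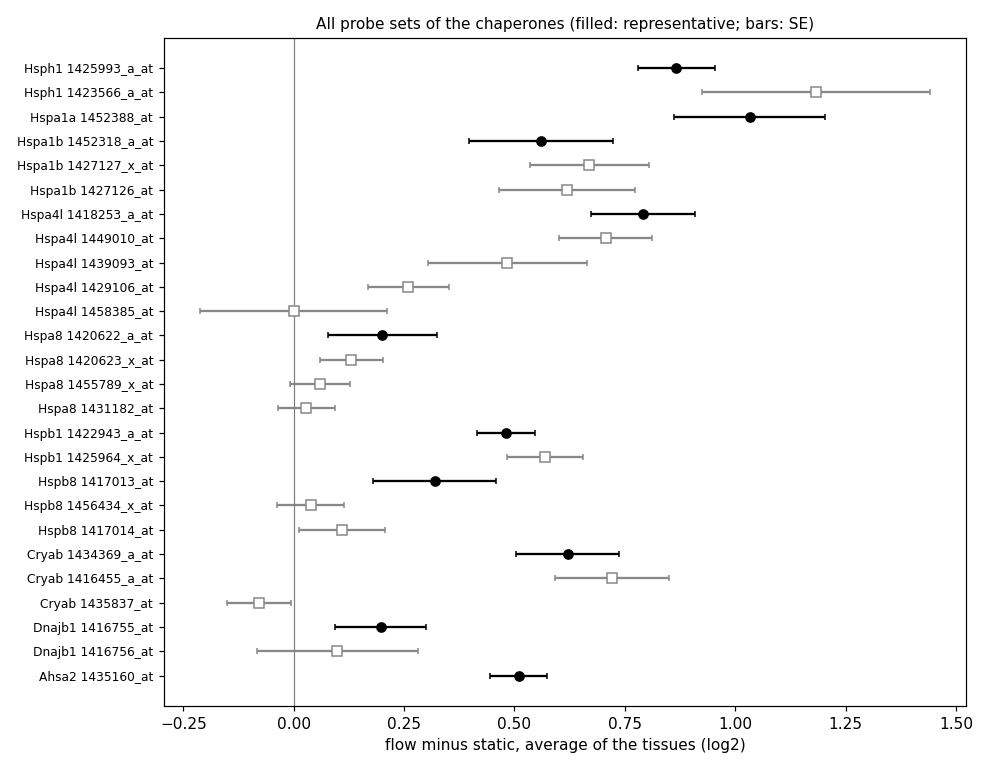
Flow minus static difference on the log2 scale, averaged over the tissues (horizontal axis, bars are SE), for each of the 26 probe sets, with a filled circle for the representative of a gene and an open square for the others. Of the 26, 25 are above 0, and the exception is a dim Cryab probe set at -0.079.

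Among the small heat shock proteins Hspb1 had the steadiest values. Hspb1, the mouse HSP25, binds unfolded clients and actin filaments. Its static values were 12.08, 11.96 and 11.90 in tendon, 12.50, 12.47 and 12.42 in cornea, and 12.27, 12.61 and 12.47 in skin. Under flow they were 12.63, 12.76 and 12.72 in tendon, 12.70, 13.06 and 12.66 in cornea, and 12.79, 12.80 and 12.88 in skin. Every flow library lay above every static one, and the tissues lay closer together under flow than in static culture. The differences were 0.72 ± 0.12 in tendon, 0.34 ± 0.12 in cornea and 0.37 ± 0.12 in skin, and the average was 0.48 ± 0.07 (1.40-fold).

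Cryab encodes alpha B crystallin, a small heat shock protein of lens and muscle that fibroblasts also make. It read 10.54, 11.01 and 10.62 in static tendon, 10.94, 11.16 and 10.89 in static cornea, and 10.35, 11.03 and 10.66 in static skin. Under flow it read 11.33, 11.61 and 11.22 in tendon, 11.51, 12.15 and 11.39 in cornea, and 11.14, 11.10 and 11.33 in skin. The states did not overlap within a tissue, but skin flow 2 (11.10) lay only 0.07 above static skin 2. On average Cryab was higher by 0.62 ± 0.12 (1.54-fold), with 0.72 for the second probe set and -0.079 for the third, which lay at percentile 5.2 of its chip. Hspb8, a small heat shock protein that acts with the co-chaperone BAG3 in selective autophagy, ran from 10.35 to 11.45 in static libraries and from 10.76 to 11.60 under flow, overlapped in every tissue and differed by 0.32 ± 0.14.

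The co-chaperones split. Ahsa2 is a relative of Ahsa1, the activator of the HSP90 ATPase. Static values were 10.51, 10.81 and 10.42 in tendon, 11.00, 10.84 and 10.85 in cornea, and 10.86, 10.73 and 10.80 in skin. Under flow they were 11.47, 11.48 and 11.29 in tendon, 11.29, 11.03 and 11.11 in cornea, and 11.29, 11.19 and 11.26 in skin. Flow and static libraries did not overlap, with cornea flow 2 (11.03) the lowest of the 9 flow libraries and static cornea 1 (11.00) the highest of the static ones. Ahsa2 was higher by 0.83 ± 0.11 in tendon, 0.25 ± 0.11 in cornea and 0.45 ± 0.11 in skin. Dnajb1, an inducible HSP40 that delivers clients to HSP70, ran from 10.74 to 11.50 in static libraries and from 11.02 to 11.59 under flow, overlapped in every tissue and differed by 0.20 ± 0.10.

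**Figure D3:**
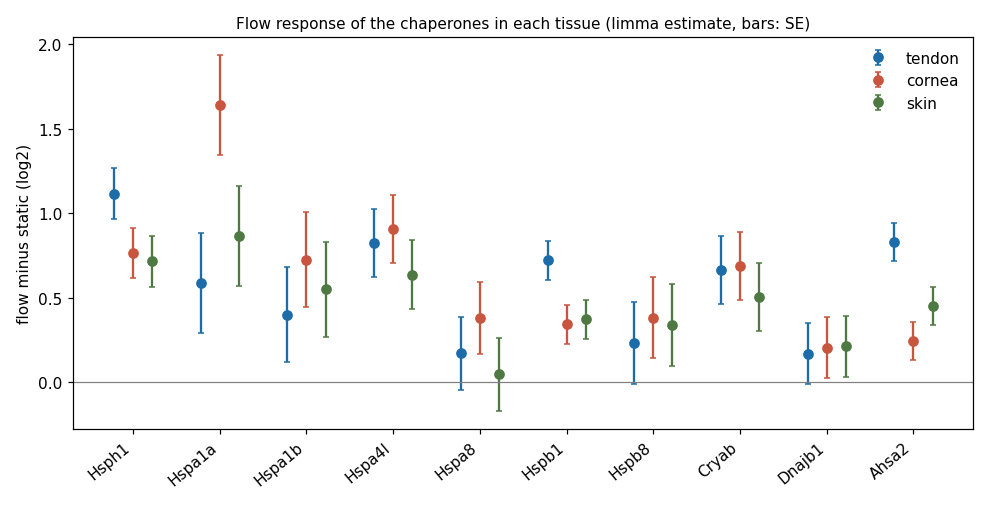
Flow minus static difference on the log2 scale (vertical axis, points are limma estimates and bars SE) for the 10 genes along the horizontal axis in tendon, cornea and skin. Tendon is highest for Hsph1, Hspb1 and Ahsa2, and cornea is highest for Hspa1a, at 1.64.

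Whether the tissues responded unequally was asked with the interaction test of limma, which compares the 3 flow differences. None of the 10 genes passed it, and 0 of 18193 genes did. At an unadjusted limma p below 0.05 there were 142 genes, among them Ahsa2 and no other member, and eBayes with trend and robust settings also called 0 genes, with 133 at an unadjusted p below 0.05. With culture day, described below, as a fixed block limma called 0 genes too. In that fit 522 genes had an unadjusted p below 0.05, and 4 of the 10 were among them. Because single tissues entered the choice of the genes, these values are no independent evidence. The tendon response of Ahsa2 exceeded the corneal one by 0.58 (95% interval 0.25 to 0.92) and that of skin by 0.38 (0.04 to 0.71). For Hspa1a the tendon response minus the corneal one was -1.06 (-1.95 to -0.17), and for Hspb1 the tendon response exceeded the corneal one by 0.38 (0.03 to 0.72). Intervals this wide do not show that the other genes responded alike, since for Dnajb1 the tendon response minus the corneal one was -0.03 with an interval of -0.57 to 0.50.

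The scan records group cultures by day. Same-day static and flow plates could be paired in 8 cases, 3 in tendon, 3 in skin and 2 in cornea, although for tendon 1 and skin 1 no day is noted and the pair rests on the replicate number. Hsph1, Hspa1a, Hspa1b, Hspa4l, Hspb1, Hspb8, Cryab and Ahsa2 were higher under flow in 8 of 8 pairs. Dnajb1 was higher in 7 and Hspa8 in 5. The smallest pair difference of Hsph1 was 0.66 and the largest 1.30, whereas Hspa1a ran from 0.47 to 2.79 and Ahsa2 from 0.03 to 0.95. With culture day as a fixed block limma called 8 of the 10 on average, where 1273 genes of all were called in place of 163. Tendon then had 4 members among 220 genes called (11 without the block), cornea 4 among 60 (4 without it) and skin 2 among 66 (5 without it), and nothing is read from the members' counts.

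**Figure D4:**
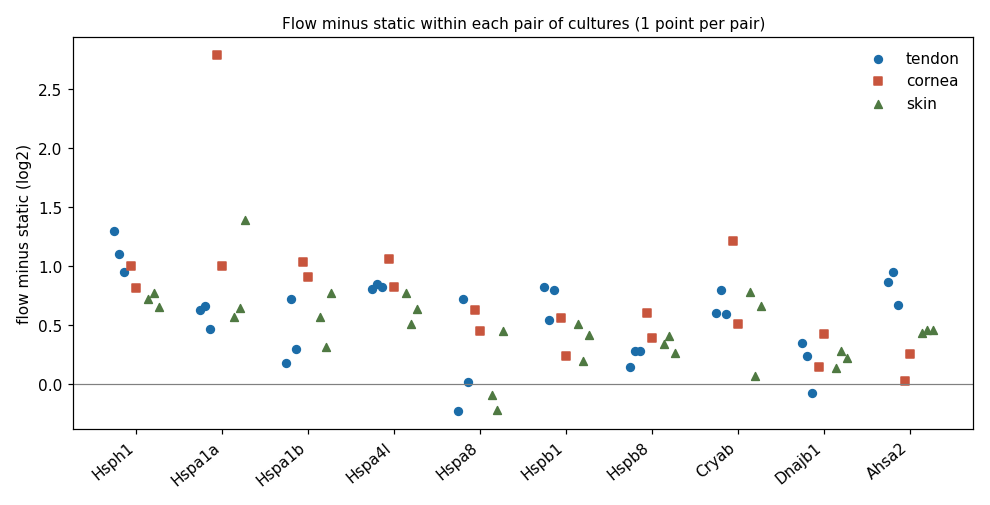
Flow minus static difference on the log2 scale (vertical axis) within each of the 8 pairs of cultures, 1 point per pair, for the 10 genes along the horizontal axis. Only Hspa8 and Dnajb1 have points below 0, and the corneal pair of Hspa1a at 2.79 is the largest difference.

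The scan records also give a hybridisation date for each array. Libraries were grouped by its month into 2 batches, called scan batches here, with 5 libraries in batch 1 and 13 in batch 2. Within batch 1 the tendon pair gave 1.10 for Hsph1, 0.66 for Hspa1a, 0.54 for Hspb1 and 0.95 for Ahsa2, and the skin pair gave 0.72, 0.57, 0.51 and 0.44. Within batch 2 the averages over tissues were 0.89 for Hsph1, 1.14 for Hspa1a, 0.50 for Hspb1 and 0.47 for Ahsa2. All 4 genes were higher in both batches, and cornea has no static library in batch 1. Only Hspa8 had a negative value within a batch, -0.09 for the skin pair of batch 1 and -0.10 for tendon in batch 2. The difference of the 3' and 5' probe sets of beta-actin, a sign of RNA length after amplification, averaged 0.92 in static and 1.17 in flow libraries. With it as a covariate limma called 6 of the 10 for flow on average, among 178 genes in all, and 3 in tendon. Nothing is read from the members' counts, since this contrast chose them. Beyond that refit the part of the beta-actin difference in the flow differences was not tested.

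Single libraries moved several of the genes together. In skin flow 3 all 10 genes lay above their group mean, by 0.24 on average, and in skin flow 2 only 1 of the 10 did, with a mean deviation of -0.19. Cornea flow 2 lay 0.19 above its group mean and static cornea 2 lay 0.17 above its own. The beta-actin difference was 1.69 in skin flow 2 and 0.94 in skin flow 3, and its part in these deviations was not tested. The scan record of static skin 2 remarks that its labelled material may have been more concentrated on all chips. Without that library the calls of tissue differences under flow fell from 2 genes to Hspa1a alone in the F test and to 0 in the pairwise tests. A static library enters these comparisons only through the shared estimate of the spread. Leaving out static skin 3 gave 0 in the F test and in the pairwise tests, so the loss is not particular to static skin 2.

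In static culture the tissues differed in 1 of the 10 genes by the limma F test (3.67% of all genes passed), namely Hspb1 (adjusted p = 0.0287). Hspb1 averaged 11.98 ± 0.09 in tendon, 12.46 ± 0.04 in cornea and 12.45 ± 0.17 in skin (SD, n = 3). All 3 tendon libraries lay below all 6 others, as in 1.83% of all genes. The tendon level was lower than the corneal one by 0.48 ± 0.12 (adjusted p = 0.0333, where 2.44% of all genes passed). Against skin the difference of -0.47 ± 0.12 did not pass (adjusted p = 0.0620, where 1.32% of all genes passed), and cornea and skin differed by 0.01 ± 0.12. The tendon libraries of this comparison also enter the flow contrast that chose the genes, so a low static level and a large flow difference of Hspb1 are not separate observations. The call ended in each refit that left out 1 of the 6 static libraries of tendon or cornea, with differences of -0.53 to -0.44 and adjusted p of 0.0515 to 0.136. It also ended for Hspb1 with culture day as a random block (adjusted p = 0.0552) and with scan batch as a block (0.0525). Within scan batch 2 tendon lay below cornea by 0.53 and below skin by 0.61, and within batch 1 static tendon lay below static skin by 0.19.

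Static levels of the other 9 genes did not pass on their representative probe sets. Hspa1b came closest, with 9.82 ± 0.43 in cornea, 9.05 ± 0.43 in tendon and 8.85 ± 0.43 in skin, and a corneal level above that of skin by 0.97 ± 0.28 (adjusted p = 0.0933, where 2.47% of all genes passed). All 3 corneal libraries lay above the 3 of skin for Hspa1a, Hspa1b and Hspa4l, which is 3 of the 10 beside 6.47% of all genes. Order among tissues was otherwise shallow, since cornea had a higher mean than skin in 10 of 10 genes, by a median of 0.16 beside -0.03 over all genes, and tendon a higher mean than cornea in 1 of 10, Hspb8. Other probe sets were read in the limma F test of static tissues over all 35041 probe sets with 1 symbol. The second Hspb1 probe set, marked as cross-hybridising, missed the threshold there (adjusted p = 0.084). A Hspa1b probe set marked as cross-hybridising passed (adjusted p = 0.042) and was higher in cornea than in skin by 0.98 (adjusted p = 0.039). On chip B, Hspa4l passed with the probe set described above and with another (adjusted p = 0.046).

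Under flow the tissues differed in 2 of the 10 genes by the F test (2.82% of all genes passed), the pair Hspa1a (adjusted p = 0.0376) and Hspa1b (adjusted p = 0.0433). Hspa1a averaged 9.56 ± 0.90 in cornea, 8.38 ± 0.38 in skin and 8.32 ± 0.07 in tendon. Hspa1b averaged 10.54 ± 0.30 in cornea, 9.40 ± 0.47 in skin and 9.45 ± 0.15 in tendon. For both genes the 3 corneal flow libraries lay above the other 6 flow libraries, as 2.4% of all genes did, and skin and tendon overlapped. The flow libraries of this comparison and of the pairwise ones below also enter the flow contrast that chose the genes. A high corneal flow level and a large corneal flow difference of either gene are therefore not separate observations, and these p-values are no independent evidence.

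Pairwise, Hspa1a was lower in tendon than in cornea by 1.23 ± 0.30 (2.35-fold, adjusted p = 0.0450, where 1.69% of all genes passed), and the corneal excess over skin of 1.18 ± 0.30 just missed (adjusted p = 0.0541). Hspa1b was higher in cornea than in skin by 1.15 ± 0.28 (2.21-fold, adjusted p = 0.0469, where 1.91% passed), and its tendon minus cornea difference of -1.09 ± 0.28 missed (adjusted p = 0.0645). Hspa4l, with a corneal mean 0.76 ± 0.20 above skin, did not pass (adjusted p = 0.0767). The tendon minus cornea difference of Hspa1a without cornea flow 2 was -0.72 (adjusted p = 0.0501), and it kept the call in 3 of 18 refits. The corneal excess of Hspa1b over skin kept it in 6 of 18, with 0.91 to 1.38. Within scan batch 1 Hspa1a in tendon lay 0.76 below cornea and within batch 2 1.47 below it, and Hspa1b in cornea lay 1.55 and 0.94 above skin. With culture day as a random block the F test under flow called Hspa1b (adjusted p = 0.00954) and Hspa4l (0.0413) and no longer Hspa1a (0.0608), and tendon minus cornea called Hspa1b (0.0181) in place of Hspa1a (0.0701). With the beta-actin difference as a covariate the F test called 0 of the 10. Since the 2 genes may be read by each other's probes, they are not 2 independent cases. Between tendon and skin under flow 0 of the 10 passed (1.06% of all genes). Hsph1 had means of 11.76 ± 0.06 in tendon, 11.76 ± 0.12 in cornea and 11.66 ± 0.20 in skin under flow.

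Other chaperone genes were followed as 6 lists, written with earlier results of these data known. Over all genes 0.896% passed the limma threshold for flow on average, 0.0605% in tendon, 0.022% in cornea and 0.0275% in skin. Of the 64 measured genes of these lists 4 passed it on average, all higher, and 0 passed within a tissue. They were the co-chaperones St13, which links HSP70 to HSP90 (0.61 ± 0.11, adjusted p = 0.017), Ahsa1, the HSP90 activator (0.49 ± 0.10, 0.029), and Chordc1, a HSP90 partner (0.43 ± 0.09, 0.040), and the HSP40 gene Dnajb2 (0.45 ± 0.09, 0.019). Of 16 measured co-chaperones 3 passed with a list median of 0.20, and of 19 other cytosolic heat shock genes 1 passed with a median of 0.10. The co-chaperones Fkbp4 (0.61 ± 0.15, limma adjusted p = 0.076) and Bag3 (0.60 ± 0.15, 0.083) had differences near that of St13 and did not pass. St13 averaged 9.25 ± 0.41, 9.56 ± 0.27 and 9.33 ± 0.23 in static tendon, cornea and skin and 9.98 ± 0.13, 10.10 ± 0.19 and 9.88 ± 0.24 under flow. The flow means were higher in all 3 tissues for St13, Ahsa1, Chordc1 and Dnajb2.

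None of 8 subunits of the cytosolic chaperonin CCT passed for flow on average (median 0.06). None of 7 mitochondrial chaperones (0.14) and none of 12 of the endoplasmic reticulum (0.07) passed, beside a median of -0.01 over all genes. The medians of these lists lay below that of the co-chaperones (0.20). They lay on both sides of that of the other cytosolic heat shock genes (0.10). The described genes were chosen by this contrast, so their larger median is not read against these lists. At limma's threshold 0 of the 2 heat shock factor genes measured, Hsf4 and Hsf2, passed, with differences of -0.10 and 0.04. Hsf1, the gene of heat shock factor 1, was not among the genes measured, and Hsf2 was dim (mean 3.64). Between tissues 1 gene of these lists passed in limma, the small heat shock gene Hspb6. In static culture it was higher in cornea than in skin by 0.87 ± 0.18 (adjusted p = 0.014, where 2.47% of all genes passed). Under flow it was higher there by 0.95 ± 0.18 (adjusted p = 0.0079, where 1.91% passed). Hspb6 was also higher in tendon than in skin under flow, by 0.80 ± 0.18 (adjusted p = 0.045, where 1.06% passed). Its average flow difference was -0.17 ± 0.10.

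**Figure D5:**
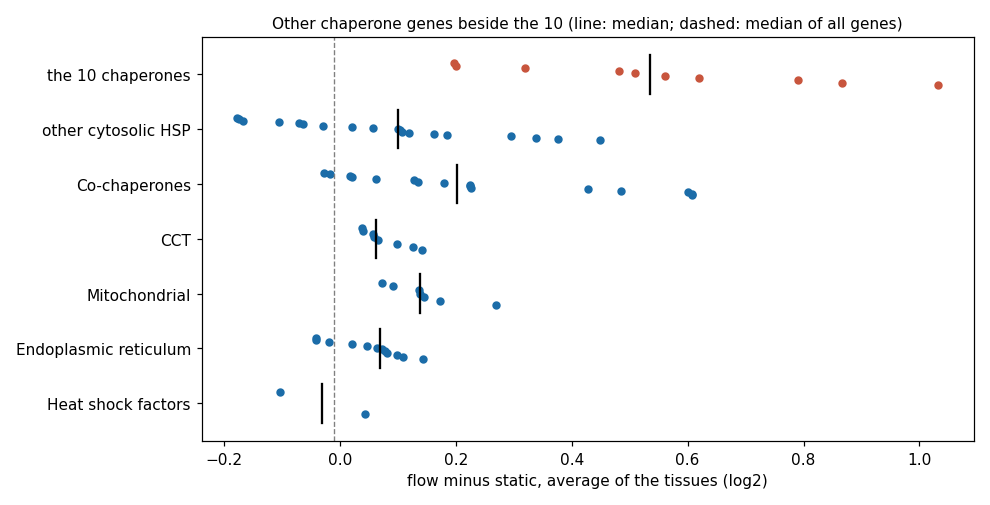
Flow minus static difference on the log2 scale, averaged over the tissues (horizontal axis), of each gene in the 6 other chaperone lists and of the 10 described genes, 1 point per gene, with a line at the median of a list and a dashed line at the median of all genes (-0.01). The 10 run from 0.20 to 1.03 with a median of 0.54, the co-chaperones reach 0.61, and no endoplasmic reticulum chaperone is above 0.14.

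The genes most like the 10 over the 18 libraries were found by Pearson correlation with the mean of the 10 after each was scaled to mean 0 and SD 1. That mean ran from -1.09 to 0.13 in static and from -0.31 to 1.36 in flow libraries, so r over all libraries follows the state that chose the genes and is a description. The 8 highest were Gsta4, a glutathione transferase (r = 0.92, rho = 0.94), the transporters Abcb6 (0.90, 0.89) and Abcc1 (0.89, 0.91), Idh3b, a subunit of mitochondrial isocitrate dehydrogenase (0.89, 0.89), the carbonyl reductase Cbr3 (0.88, 0.80), Gclc, the catalytic subunit of the first enzyme of glutathione synthesis (0.88, 0.91), Ahsa1 (0.88, 0.88) and St13 (0.88, 0.91). Within the 9 static libraries r ranged from -0.11 for Cbr3 to 0.89 for Idh3b, and within the 9 flow libraries from 0.60 for Gclc to 0.95 for Gsta4. Among the 10 themselves, each against the mean of the other 9, r was highest for Hsph1 (0.89) and Hspa4l (0.88) and lowest for Dnajb1 (0.52) and Hspb8 (0.48).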

How the data were processed

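The deposited log2 values of the 36 arrays were made by the authors with RMA, per the submitters' processing notes, which corrects background, normalises by quantiles and sums up the probes of a probe set. The sources used here name neither its version nor the probe set definitions. The tables of chip A and chip B were kept apart, without further scaling. A gene was represented by 1 probe set, taking one not marked as cross-hybridising first, then chip A, then the highest mean. One model of the 6 group means per chip was fitted in limma (version 3.58.1, under R 4.3.3; residual degrees of freedom 12), and the spread was moderated over all probe sets that are not controls. That pool was settled on last, after probe sets with 1 symbol (154 genes called for flow on average) and gene representatives (156) had been run, because its count of 163 matched an earlier analysis of these data; the members' tissue calls were the same under all 3, with Hspa1a added in cornea minus skin under flow for the representatives. P-values were adjusted by Benjamini-Hochberg over 18193 genes of both chips. The fit was tested on simulated data. The number of arrays limits the precision.

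The members and lists were chosen with earlier results of these data known. All 10 members and their 26 probe sets are named, called genes of the other lists up to 4 a list, and the 8 genes most alike with clone names left out. Of the uncalled list genes Fkbp4, Bag3 and the heat shock factors are named too. Deviations from group means of same-day plates correlated at 0.36 to 0.72 in 8 of 8 pairs, and those of same-numbered plates at -0.38 to 0.72, over 0.1 in 7 of 9. The day pairs come from the scan records, except those of tendon 1 and skin 1. These have no noted day and rest on the replicate number. Elsewhere the replicate numbers, which cross days in cornea, were not taken as pairs. The fit reported has no block, and calls that change with culture day as a block are given beside the results.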

Additional observations from a re-analysis of the deposited data

How the results depend on the processing

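Counts below are members called by limma, 6 on average over tissues, 3 in tendon, 0 in cornea, 0 in skin and 0 in the interaction, 1 and 2 by the F tests of static and flow tissues. With the replicate block the counts were 6 on average, 2 for static tissues, 1 for static cornea minus skin, 2 for tendon minus cornea under flow and 3 for cornea minus skin under flow. Culture day as a fixed block gave 4 in cornea and 2 in skin, and no tissue contrast could be fitted with it. As a random block it gave 3 and 2, 0 for static tendon minus cornea and 2 for cornea minus skin under flow, and the 2 for flow tissues were Hspa4l and Hspa1b. Scan batch as a block gave 0 for static tendon minus cornea, 1 for static tendon minus skin, 2 for tendon minus cornea under flow and 3 for cornea minus skin under flow. Scan batch 2 alone, with 13 libraries, gave 2 on average (32 genes in all against 163) and 0 in tendon and in each tissue comparison. Fitting only the libraries of tendon gave 0 there. With p-values adjusted over all 35041 probe sets with 1 symbol, the representatives gave 1 for flow tissues and 0 for their pairwise calls. The other Hspa1b probe sets passed there in the F test under flow (adjusted p = 0.031 and 0.027). They also passed in tendon minus cornea (0.043 and 0.028) and cornea minus skin (0.041 and 0.0496) under flow. A Hspa4l probe set of chip B passed in that F test (0.0499) and in tendon minus cornea (0.029). Median-centred arrays gave 1 for flow tissues and 0 for cornea minus skin under flow, and the beta-actin covariate 0 for flow tissues and for tendon minus cornea. Cornea minus skin under flow gave 2 without dim genes (below the 40th percentile of the chip), with trend and robust settings and with the spread from gene representatives only. Leaving out 1 library gave 6 to 6 on average, 0 to 3 in tendon, 0 to 1 in cornea, 0 to 0 in skin and in the interaction, 0 to 1 for static tissues and 0 to 2 for flow tissues. For static pairs the range was 0 to 1 in each, and under flow 0 to 1 for tendon minus cornea, 0 to 0 for tendon minus skin and 0 to 2 for cornea minus skin. The average flow difference of Cryab reversed to -0.079 on its dim probe set. The random day block, scan batch 2 alone and the 2 narrower pools for the spread were chosen after seeing the data. The cause of these changes was not tested, apart from smaller sets of libraries. Calls of tissue differences rest on 3 libraries a group.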
